A study of Mus musculus with 6 samples.

Results

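Collagens are the trimeric, mostly extracellular proteins that make up much of connective tissue. The genes described are all those whose symbol has the form Col, a type number, the letter a and a chain number. There are 44 of them among the 37991 gene identifiers of the count files, and they were sorted into 9 classes by the kind of assembly their chains form. A filter on low counts left 41 of the 44 for testing, among 15227 genes in all.

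The study set the mesenchyme of the Müllerian duct, an embryonic duct lost in males and kept in females, side by side in both sexes of mouse embryos at embryonic day 14.5. The series title places osterix (Sp7) downstream of anti-Müllerian hormone in that regression. The groups were male embryos (3 libraries) and female embryos (3 libraries), both Amhr2Cre/+, R26R YFP/+ on a mixed C57BL/6J x 129/SvEv background. Each library held RNA of YFP-positive cells sorted from 2 to 7 pooled embryos, so no value belongs to 1 embryo. The Cre is driven from the Amhr2 locus, which encodes the receptor of anti-Müllerian hormone and is also active in fetal gonads, and both sexes carry it.

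Collagen chains hold long repeats rich in glycine and proline, and they wind around each other in a triple helix. Fibrillar collagens pack into the banded fibrils that bear tension, and FACIT collagens sit on the surface of those fibrils. Type IV collagens form the sheet of the basement membrane, multiplexins lie in the zone around it, and type VI collagen forms beaded filaments. Others form anchoring fibrils beneath epithelia or span the cell membrane.

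The libraries held 22511872 to 24749859 counts in genes, of which collagens took 1.26% to 2.08% in male and 1.03% to 1.69% in female libraries. Sex-linked genes went with the labels: the sum of 4 Y-linked genes was 52.0 to 395.5 CPM in male libraries and at most 0.441 CPM in female libraries. CPM, the counts of a gene scaled to library size, use edgeR's TMM factors. All 6 markers listed for the duct mesenchyme were detected. Their sums were 2444.7 to 3169.8 CPM in male and 1971.6 to 2319.2 CPM in female libraries, with Vim the most abundant. The members went both ways, and none passed the test between the sexes given below. Log2 values, male over female, were 1.07 for Pdgfra, 0.69 for Tcf21, 0.60 for Wnt5a and 0.48 for Vim. Amhr2 had −0.65 and Emx2 −1.28. Of these, Pdgfra and Emx2 did not overlap between the sexes. Of the 9 duct epithelium markers, Krt18 and Krt8 were abundant and Pax2, Lhx1 and Wnt9b stayed under 1 CPM in every library. In bulk RNA, fewer cells of a type and less RNA per cell cannot be told apart. Replicates 1 and 2 of each sex also differed by the GC content of transcripts, with values for the collagens given at the end.

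None of the 5 most abundant chains passed the test between the sexes. Of the 41 tested genes, 3 were higher in male (Col15a1, Col13a1 and Col14a1) and 2 were lower (Col7a1 and Col28a1) by edgeR's quasi-likelihood test at an adjusted p under 0.05. That is 12.2% of the tested collagens, beside 1.23% of all genes tested, of which 0.841% were higher and 0.387% lower. Male and female libraries did not overlap in 11 of the 41, or 26.8%, with 6 higher and 5 lower in male. Among all genes tested 13.7% did not overlap, 6.47% higher and 7.27% lower. The median log2 fold change, male over female, was 0.19 over the tested collagens and −0.01 over all genes, and the median absolute log2 fold change was 0.60 against 0.31. With an offset for GC content and transcript length, 9 of the 41 passed, 5 higher and 4 lower, beside 5.94% of all genes (3.02% higher and 2.92% lower). The 4 added by the offset were Col12a1, Col9a3, Col23a1 and Col26a1.

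**Figure D1:**
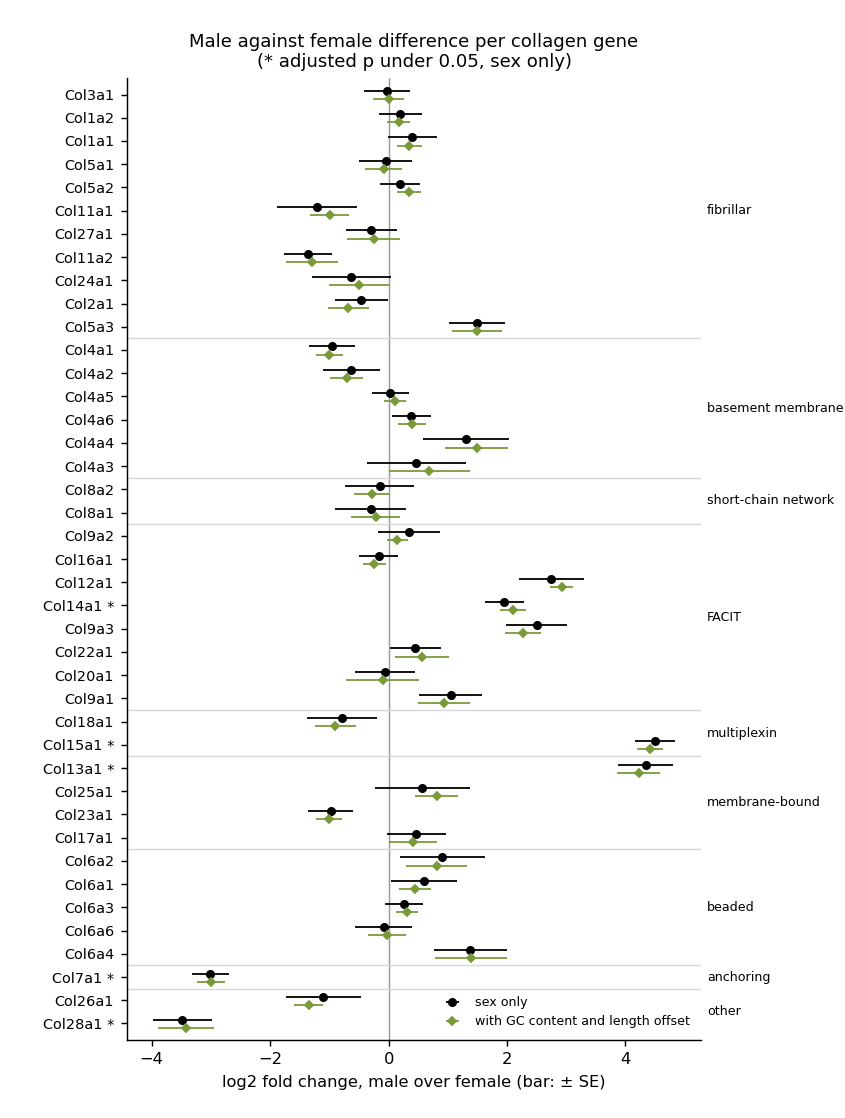
Log2 fold change, male over female, of the 41 tested collagen genes by class, with the standard error as a bar, from the fit on sex alone (circles) and with an offset for GC content and length (diamonds). Col15a1 at 4.50 and Col13a1 at 4.34 stand farthest to the right, Col28a1 at −3.48 and Col7a1 at −3.01 farthest to the left, and stars mark the 5 genes with an adjusted p under 0.05 in the fit on sex alone.

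The calls rest on few libraries, and the sizes less so. Without each library in turn, Col15a1 kept a log2 fold change of 4.40 to 4.6 and Col7a1 one of −3.09 to −2.95. Col15a1 passed without male replicate 1 or 2 or female replicate 1 (adjusted p = 0.00731, 0.0480 and 0.0474) and missed without male replicate 3 or female replicate 2 or 3 (0.102, 0.0556 and 0.181). Col13a1 and Col7a1 passed without male replicate 1 (0.0138 and 0.0197). They missed without male replicate 2 or 3 or any female library, with adjusted p of 0.0630 to 0.203 for Col13a1 and 0.0601 to 0.181 for Col7a1. Col14a1 and Col28a1 missed whichever library was left out, at 0.0753 to 0.273 and 0.0738 to 0.262, with log2 fold changes of 1.83 to 2.14 and −3.68 to −3.20. All of these adjusted p come from edgeR. Over all genes, 0 passed without male replicate 3 or female replicate 3, where edgeR gave 938 and 884 genes an unadjusted p under 0.05 and DESeq2 was not run.

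The sequences before the start sites of the called genes are shown because these genes passed the test. The RefSeq promoter table used here was matched for 4 of the 5, and for 35 of the 44 collagen genes. Each stretch is the 250 bases before the RefSeq start on the strand of the gene, build GRCm38.p6, from 5′ to 3′. Capitals mark 3 motifs searched on both strands: TATAAA, the core of the TATA box, GGGCGG, the GC box that Sp family proteins bind, and TAATTA, a homeobox core. Each stretch holds at most 1 match. The Col15a1 stretch lies on chr4:47207762-47208011, plus strand, that of Col13a1 on chr10:61979109-61979358, minus strand, that of Col7a1 on chr9:108953336-108953585, plus strand, and that of Col28a1 on chr6:8192618-8192867, minus strand.
Col15a1: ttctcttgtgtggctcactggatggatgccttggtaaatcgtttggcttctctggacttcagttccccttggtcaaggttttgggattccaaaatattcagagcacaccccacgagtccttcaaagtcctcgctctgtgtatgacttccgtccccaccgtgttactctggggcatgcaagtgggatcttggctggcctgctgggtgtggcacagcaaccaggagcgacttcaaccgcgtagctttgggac
Col13a1: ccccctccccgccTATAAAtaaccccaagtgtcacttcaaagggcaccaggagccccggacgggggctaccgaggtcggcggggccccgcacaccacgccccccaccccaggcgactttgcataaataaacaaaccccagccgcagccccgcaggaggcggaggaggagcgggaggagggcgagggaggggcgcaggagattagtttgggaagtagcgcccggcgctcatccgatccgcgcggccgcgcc
Col7a1: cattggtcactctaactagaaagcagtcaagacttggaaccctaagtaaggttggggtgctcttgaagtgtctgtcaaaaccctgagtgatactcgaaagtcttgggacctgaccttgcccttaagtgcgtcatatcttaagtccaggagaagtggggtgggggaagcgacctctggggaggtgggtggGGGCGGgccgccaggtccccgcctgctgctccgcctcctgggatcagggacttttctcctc
Col28a1: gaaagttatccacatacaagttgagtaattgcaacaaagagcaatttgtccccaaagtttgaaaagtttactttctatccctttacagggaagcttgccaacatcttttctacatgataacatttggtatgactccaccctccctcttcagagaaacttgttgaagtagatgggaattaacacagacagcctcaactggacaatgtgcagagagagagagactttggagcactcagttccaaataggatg
Col13a1 held 1 TATAAA and Col7a1 held 1 GGGCGG, and the other pair held none of the 3 motifs. GC content of the stretch ran from 40.4% in Col28a1 to 68.8% in Col13a1. Over all 32851 RefSeq stretches of the same length, 12.4% held TATAAA, 32.7% GGGCGG and 4.84% TAATTA. Over the 38 stretches of collagen genes 13.2%, 57.9% and 5.26% did. The collagen stretches were also richer in GC, with a median of 59.0% against 52.4% over all stretches. The matches describe these letters only.

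Fibrillar collagens made up a large part of collagen RNA in both sexes, and none of the 11 tested members passed. Their median log2 fold change was −0.05. Levels were compared between genes as CPM per kb of the longest annotated transcript. The most abundant members of the class were Col3a1, the single chain of type III collagen of distensible tissues, and Col1a2 and Col1a1, the chains of type I collagen. Col3a1 stood at 1756.8, 2143.7 and 2534.2 CPM in male and 1621.4, 2443.2 and 2525.5 CPM in female replicates 1 to 3. These ranges overlap almost fully, and the log2 fold change was −0.03 (SE 0.39). Col1a1 stood at 1603.0, 2292.5 and 2101.0 CPM in male and 974.5, 1875.6 and 1709.5 CPM in female libraries, a log2 fold change of 0.40 (SE 0.41). Col1a2 stood at 1509.6, 1917.1 and 1816.8 CPM in male and 1094.7, 1790.4 and 1672.3 CPM in female libraries, a log2 fold change of 0.20 (SE 0.37). In both sexes replicate 1 was the lowest library for all 3 genes, and the sexes overlapped.

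**Figure D2:**
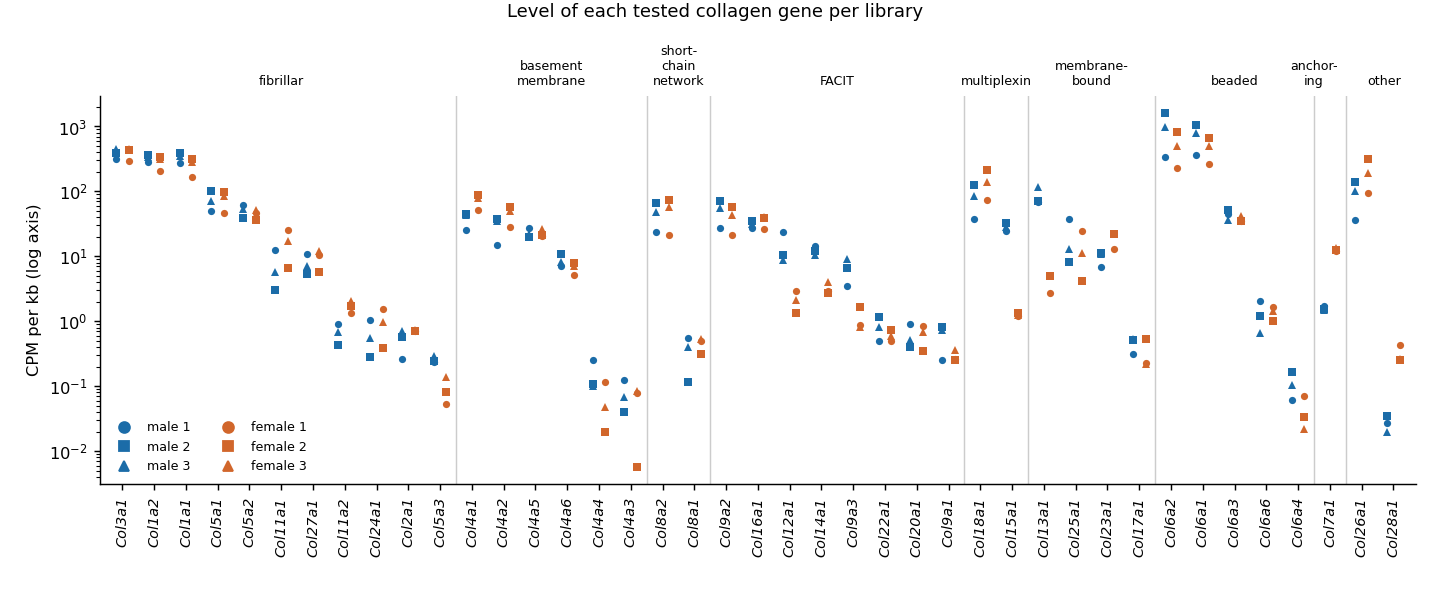
CPM per kb of longest transcript (log axis) of the 41 tested collagen genes in each library, male at the left and female at the right of each gene, with classes side by side. Col6a2, Col6a1, Col3a1, Col1a2 and Col1a1 are the highest, and Col15a1, Col13a1, Col14a1, Col7a1 and Col28a1 show male and female points far apart.

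Type V collagen, which nucleates fibrils and limits their width, did not pass either. Col5a1 had 417.2, 860.7 and 595.3 CPM in male and 394.2, 817.2 and 724.4 CPM in female libraries. Its usual partner Col5a2 had 411.5, 262.0 and 349.6 CPM in male and 310.0, 236.7 and 347.2 CPM in female libraries. On the log2 scale Col5a1 differed by −0.05 (SE 0.45) and Col5a2 by 0.19 (SE 0.34). Replicate 2 of each sex was the highest for Col5a1 and the lowest for Col5a2. Col5a3, the third chain of this type, was scarce, with 38, 30 and 42 counts in male and 9, 10 and 21 counts in female libraries. Its groups did not overlap, but it missed the threshold (log2 fold change 1.49, SE 0.47, edgeR adjusted p = 0.287).

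The cartilage-type fibrillar genes were at low or middling levels. Col2a1, the main cartilage collagen, had 1.34, 2.97 and 3.67 CPM in male and 3.64, 3.64 and 3.68 CPM in female libraries. Col11a2, a type XI chain that forms thin cartilage fibrils with type II, had 5.39, 2.57 and 4.09 CPM in male and 8.19, 10.3 and 12.4 CPM in female libraries. Each male Col11a2 value lay below each female one, yet the gene missed the threshold (log2 fold change −1.36, SE 0.41, edgeR adjusted p = 0.254). It was the fibrillar gene with the smallest p. Its partner Col11a1 was far higher, at 96.2, 23.3 and 44.3 CPM in male and 193.2, 50.8 and 133.9 CPM in female libraries. Replicate 2 of both sexes was low and the groups overlapped (−1.21, SE 0.68). Col27a1, a minor fibrillar chain, had 2139, 823 and 1264 counts in male and 2181, 897 and 2256 counts in female libraries (log2 fold change −0.29). Col24a1, another, had 193, 40 and 93 counts in male and 298, 56 and 173 counts in female libraries (−0.63). Both overlapped between the sexes. Of 8 cartilage markers, 6 stayed under 1 CPM in every library, Matn1 among them at 0. The summed level was 13.0 to 32.4 CPM in male and 4.2 to 8.78 CPM in female libraries. Hapln1, the most abundant, was a large part of each sum. It had 6.97 to 31.1 CPM in male and 2.26 to 7.38 CPM in female libraries, with overlap. On sex alone Hapln1 missed the threshold (log2 fold change 1.95, SE 0.71, edgeR adjusted p = 0.423). With the offset it passed (adjusted p = 0.00538).

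FACIT genes held 1 of the 3 called rises, and 2 more that passed with the GC content and length offset. Of the 9 genes 8 were tested, and their median log2 fold change was 0.75. Col14a1, whose chain binds the surface of type I fibrils, had 92.9, 77.9 and 68.6 CPM in male and 18.9, 17.3 and 25.6 CPM in female libraries. All male values lay above all female values, with means of 79.8 ± 12.3 and 20.6 ± 4.38 CPM (SD, n = 3 each). Col14a1 rose by 1.95 on the log2 scale (SE 0.33), close to the threshold at an edgeR adjusted p of 0.0495. It missed with library size alone (0.0697) and with no filter (0.0795). Col12a1, the most similar FACIT gene, a component of dense connective tissue, had 275.8, 120.7 and 99.5 CPM in male and 34.1, 15.6 and 24.1 CPM in female libraries. The groups did not overlap and replicate 1 was the highest of each sex. Its log2 fold change of 2.75 (SE 0.55) missed the threshold (edgeR adjusted p = 0.0793), and with the offset it was 2.92 (SE 0.20, adjusted p = 0.000837). Over 17 alternative settings the adjusted p of Col12a1 lay between 1.25e-41 and 0.426, and it passed in 5. The lowest came from edgeR with a block for replicate number, although replicate 3 did not match between the sexes (r = −0.07).

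**Figure D3:**
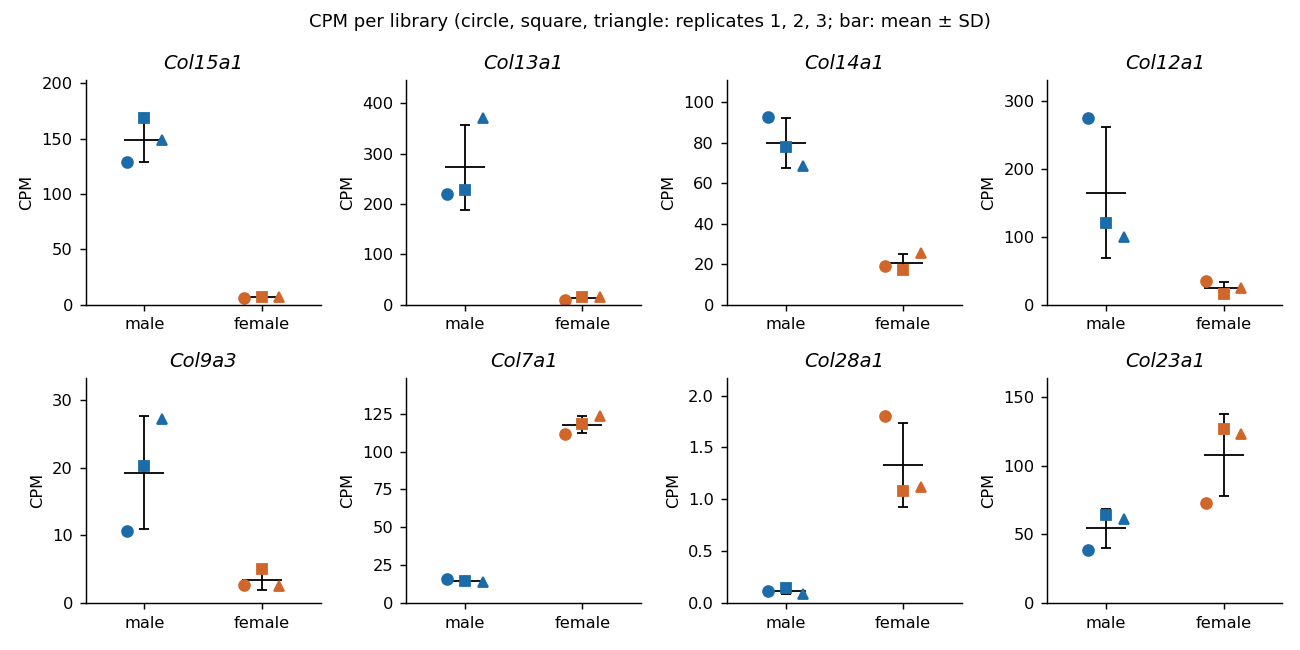
CPM per library of 8 collagen genes, male at the left and female at the right of each panel, with mean ± SD of 3 libraries, each axis from 0. Male points lie above female points for Col15a1, Col13a1, Col14a1, Col12a1 and Col9a3 and below them for Col7a1, Col28a1 and Col23a1.

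Type IX collagen, a FACIT trimer of 3 different chains on cartilage fibrils, was uneven between its genes. Col9a3 had 10.6, 20.2 and 27.2 CPM in male and 2.68, 5.06 and 2.48 CPM in female libraries, without overlap. It missed the threshold (log2 fold change 2.50, SE 0.52, edgeR adjusted p = 0.0881) and passed with the offset (2.27, SE 0.30, adjusted p = 0.00717). It passed in 5 of 17 alternatives, with adjusted p from 7.95e-25, again from edgeR with the block for replicate number, to 0.491. Col9a2 was much higher, at 81.2, 207.2 and 163.8 CPM in male and 61.6, 169.0 and 127.0 CPM in female libraries, with a log2 fold change of 0.34 (SE 0.52). Col9a1 was scarce, at 0.956, 3.16 and 2.82 CPM in male and 0.992, 0.983 and 1.36 CPM in female libraries. Per kb, Col9a2 exceeded Col9a3 by a ratio of 8.01, 10.7 and 6.27 in male and 23.9, 34.8 and 53.3 in female libraries, so the ratio did not overlap between the sexes. The exons of Col9a3 overlap those of Tcfl5 on the other strand over 234 bases in the GRCm38 annotation. Tcfl5 averaged 1.22 CPM in male and 0.847 CPM in female libraries.

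Markers of fetal testis cells were also measured. Of 6 Sertoli cell markers 3 were higher in male (Amh, Sox9 and Cst9), and their summed level was 69.5 to 121.4 CPM in male and 12.3 to 20.3 CPM in female libraries. Ptgds, another of the 6, had a log2 fold change of 0.21. The 5 Leydig cell markers summed to 2.42 to 7.0 CPM in male and 5.4 to 8.89 CPM in female libraries, with none called. The part of these cells in the Col9a3 difference was not tested. The remaining tested FACIT genes overlapped between the sexes and did not pass. Col16a1, which lies near basement membranes, had 139.9, 185.0 and 165.7 CPM in male and 137.8, 205.3 and 208.2 CPM in female libraries, a log2 fold change of −0.17 (SE 0.33). Col22a1, found at tissue junctions, had 113, 211 and 172 counts in male and 119, 131 and 131 counts in female libraries (0.45, SE 0.43). Col20a1 had 120, 40 and 62 counts in male and 117, 36 and 87 counts in female libraries (−0.06, SE 0.51). Col19a1 was too low to test, with 10, 4 and 2 counts in male and 2, 1 and 2 counts in female libraries. On these few counts its groups did not overlap in CPM.

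Beaded filament genes held the 2 most abundant chains per kb, and none of the 5 tested members passed. Type VI collagen is built from an alpha 1, an alpha 2 and one further chain. Col6a2 had 1692.0, 7826.3 and 4874.5 CPM in male and 1138.5, 4076.9 and 2464.1 CPM in female libraries. Col6a1 had 1486.1, 4248.8 and 3208.3 CPM in male and 1075.1, 2750.9 and 2070.8 CPM in female libraries. For both genes the groups overlapped, replicates of 1 sex differed by more than the sexes, and neither Col6a2 (log2 fold change 0.91, SE 0.71) nor Col6a1 (0.60, SE 0.56) passed. Col6a3, the usual further chain, had 460.3, 528.5 and 366.4 CPM in male and 355.1, 353.4 and 419.8 CPM in female libraries (0.26, SE 0.32). Per kb, Col6a1 exceeded Col6a3 by a ratio of 7.96 to 21.6 in male and 7.46 to 19.2 in female libraries.

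The alternative further chains of type VI were rare. Col6a6 had 17.9, 10.6 and 5.73 CPM in male and 14.6, 9.0 and 12.6 CPM in female libraries, with a log2 fold change of −0.08 (SE 0.48). Col6a4 had 12, 25 and 18 counts in male and 14, 5 and 4 counts in female libraries, the smallest p of the class, at an edgeR adjusted p of 0.614. Col6a5 was not tested, with 0, 2 and 4 counts in male and 14, 3 and 6 counts in female libraries.

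Col7a1, the chain of the anchoring fibrils that tie epithelial basement membranes to connective tissue, was the clearest fall. It had 16.1, 14.2 and 13.6 CPM in male and 111.9, 117.9 and 123.6 CPM in female libraries. Replicates lay close together in each sex and far apart between the sexes, at 14.6 ± 1.32 and 117.8 ± 5.82 CPM (SD, n = 3 each). Col7a1 fell, with a log2 value of −3.01 (SE 0.31, edgeR adjusted p = 0.0148). Among the epithelial markers Epcam, a cell adhesion gene, was lower in male too, at 2.13 to 3.08 CPM in male and 10.1 to 15.5 CPM in female libraries (log2 fold change −2.41, SE 0.37, edgeR adjusted p = 0.0381). The Epcam call was lost whichever library was left out (adjusted p 0.0738 to 0.270). The summed level of the 9 epithelial markers overlapped, at 125.7 to 387.3 CPM in male and 170.0 to 567.4 CPM in female libraries, and Epcam was the 1 of 6 tested that passed. Of the 4 epidermis markers Krt5 and Trp63 stayed under 1 CPM in every library, and Krt14 stood at 7.65 to 31.6 CPM in male and 5.77 to 26.6 CPM in female libraries. Krt15, the other one, had 2.37 to 3.86 CPM in male and 3.31 to 10.5 CPM in female libraries (log2 fold change −1.12, SE 0.51, edgeR adjusted p = 0.627, with the offset 0.0549). Their part in the Col7a1 difference was not tested.

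Basement membrane genes did not pass in any of 6 cases. Col4a1 and Col4a2, the chains of the widespread type IV trimer, share a head-to-head start region. Col4a1 had 166.4, 294.3 and 284.4 CPM in male and 340.7, 583.3 and 517.2 CPM in female libraries. The groups did not overlap, and the log2 fold change of −0.95 (SE 0.39) missed the threshold (edgeR adjusted p = 0.525). With the offset it was −1.0 (SE 0.23, adjusted p = 0.0547). Col4a2 had 96.0, 245.8 and 224.2 CPM in male and 179.7, 373.0 and 320.4 CPM in female libraries, with overlap and a log2 fold change of −0.63 (SE 0.48). Per kb the ratio of Col4a1 to Col4a2 was 1.37 ± 0.284 in male and 1.65 ± 0.175 in female libraries (SD, n = 3 each).

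The X-linked pair Col4a5 and Col4a6, also head to head, showed no such pattern. Col4a5 had 181.4, 129.0 and 145.0 CPM in male and 134.8, 138.0 and 173.4 CPM in female libraries, a log2 fold change of 0.03 (SE 0.31). Col4a6 had 47.5, 70.9 and 55.0 CPM in male and 34.1, 52.4 and 47.0 CPM in female libraries, a log2 fold change of 0.38 (SE 0.33). Both genes overlapped between the sexes. Col4a3 and Col4a4, the kidney glomerulus pair, were near the detection limit, with 28, 7 and 14 against 18, 1 and 18 counts of Col4a3 and 67, 22 and 24 against 32, 4 and 12 counts of Col4a4 in male against female libraries.

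Of the 2 multiplexins 1 passed. Col15a1, which lies between basement membranes and the fibrils beneath them, had the largest rise of any collagen and the smallest p. It had 128.6, 168.6 and 148.4 CPM in male and 6.28, 6.93 and 6.40 CPM in female libraries. Every male library was far above every female one, at 148.5 ± 20 and 6.54 ± 0.346 CPM (SD, n = 3 each), with 10295 and 472 counts in all. Col15a1 rose by 4.50 on the log2 scale (SE 0.34, edgeR adjusted p = 0.0104). Col18a1, its relative and the source of the endostatin fragment, was the more abundant of the pair, at 210.8, 705.0 and 473.8 CPM in male and 405.7, 1206.7 and 783.9 CPM in female libraries. The groups overlapped, and the log2 fold change of −0.79 (SE 0.59) did not pass. Per kb Col15a1 reached 28.7 ± 3.87 in male and 1.26 ± 0.067 in female libraries, and Col18a1 82.8 ± 44.2 and 142.8 ± 71.6 (SD, n = 3 each).

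Membrane-bound genes were as divided. Col13a1, a transmembrane collagen of cell adhesion sites, had 219.2, 227.8 and 370.7 CPM in male and 8.52, 15.9 and 15.9 CPM in female libraries. Every male library lay far above every female one, and the means were 272.6 ± 85.1 and 13.4 ± 4.26 CPM (SD, n = 3 each). Col13a1 rose by 4.34 on the log2 scale (SE 0.46, edgeR adjusted p = 0.0167). Col23a1, another transmembrane chain, had 38.4, 64.2 and 61.1 CPM in male and 73.1, 127.0 and 122.9 CPM in female libraries. The groups did not overlap, and its log2 fold change of −0.98 (SE 0.38) missed the threshold (edgeR adjusted p = 0.473), while with the offset it passed narrowly (−1.01, SE 0.22, adjusted p = 0.0454). Over 17 alternatives it passed in 4, with adjusted p from 1.18e-06 to 1. Col25a1, a transmembrane collagen first found in amyloid plaques, had 255.9, 54.6 and 86.7 CPM in male and 163.5, 28.2 and 76.1 CPM in female libraries. Replicate 1 was far above the other replicates in both sexes, and the log2 fold change of 0.57 (SE 0.80) turned to −0.34 without male replicate 1. Col17a1, a hemidesmosome chain, was scarce, at 1.76, 2.87 and 2.95 CPM in male and 1.25, 3.0 and 1.24 CPM in female libraries.

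The levels of markers of other cell types stand beside these rises. The 7 endothelium markers summed to 143.7 to 328.6 CPM in male and 49.0 to 94.6 CPM in female libraries, almost all of it Kdr, the 1 member whose groups did not overlap. Pecam1 and Cdh5, defining endothelial genes, stood at 0.841 to 2.52 CPM in male and 1.18 to 1.87 CPM in female libraries, and Cldn5 stayed under 1 CPM in every library. The 6 smooth muscle markers summed to 128.2 to 274.9 CPM in male and 27.6 to 50.4 CPM in female libraries, most of it Tagln and Acta2. All 6 smooth muscle markers were without overlap, 5 higher in male, and Myh11 lower at 2.10, 0.494 and 1.05 CPM in male and 7.72, 3.88 and 7.68 CPM in female libraries. By edgeR no tested member of either list passed on sex alone. With the offset 6 passed, all higher in male: Kdr (adjusted p = 0.0109), Acta2 (0.0174), Actg2 (0.0119), Cnn1 (0.00607), Tagln (0.00302) and Myocd (0.00783). Of the 7 osteoblast markers 2 were higher in male, Sp7 (edgeR adjusted p = 0.0180) and Ibsp, which had 285, 53 and 134 counts in male and 0, 0 and 1 counts in female libraries (adjusted p = 0.0253). The osteoblast sums overlapped, at 1096.4 to 1935.6 CPM in male and 665.3 to 1578.6 CPM in female libraries. Most of each sum was Sparc, at 846.3 to 1675.1 CPM in male and 598.5 to 1511.1 CPM in female libraries, so the sums say little about the other members. Runx2, Alpl, Sparc and Spp1 did not pass on sex alone, and Bglap was too low to test. The part of these cell types in the rises of Col15a1, Col13a1 and Col14a1 was not tested.

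Short-chain network genes, which form lattices around vessels and in the cornea, did not differ beyond their spread. Col8a2 had 101.2, 291.7 and 209.2 CPM in male and 93.3, 320.6 and 253.6 CPM in female libraries (log2 fold change −0.15, SE 0.58). Col8a1 had 2.87, 0.593 and 2.02 CPM in male and 2.53, 1.57 and 2.68 CPM in female libraries (−0.30, SE 0.60). Replicate 1 was the lowest of each sex for Col8a2. Col10a1, of hypertrophic cartilage, was not tested, with 4, 0 and 1 counts in male and 12, 0 and 1 counts in female libraries.

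The 2 genes outside these classes were both lower in male by value, and 1 passed. Col28a1, a collagen known from peripheral nerve, had 3, 3 and 2 counts in male and 49, 22 and 28 counts in female libraries. The groups did not overlap, and Col28a1 fell, with a log2 value of −3.48 (SE 0.50, edgeR adjusted p = 0.0314). By summed counts the ratio of male to female was 0.0836 (exact 95% interval 0.0351 to 0.171, counting error only), so the size is uncertain. Sox10, a Schwann cell marker, stayed under 1 CPM in every library, while the neuronal gene Stmn2 stood at 47.0 to 68.1 CPM in male and 9.59 to 11.7 CPM in female libraries (log2 fold change 2.50, SE 0.33, edgeR adjusted p = 0.0253). Their part in the Col28a1 difference was not tested. Col26a1, first described in mouse testis and ovary, was abundant per kb. It had 100.1, 387.2 and 285.6 CPM in male and 259.5, 866.5 and 530.6 CPM in female libraries. The groups overlapped. Its log2 fold change was −1.10 (SE 0.64, edgeR adjusted p = 0.860), and with the offset −1.35 (SE 0.25, adjusted p = 0.0240). It passed in 4 of 17 alternatives, with adjusted p from 2.61e-09 to 1.

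As shares of summed CPM per kb, the beaded class held 34.7%, 57.4% and 48.5% of collagen RNA in male and 30.7%, 41.5% and 35.3% in female libraries. Fibrillar genes held 46.3%, 27.4% and 34.5% in male and 45.9%, 33.4% and 41.3% in female libraries. Both classes overlapped between the sexes and traded places between replicates. Basement membrane genes held 2.42% to 3.47% in male and 4.73% to 6.09% in female libraries, and multiplexins 2.88% to 3.39% and 4.27% to 5.86%. Col26a1 and Col28a1 together held 1.66% to 2.98% in male and 5.43% to 8.42% in female libraries. In these 3 groupings each male library lay below each female one. The lower multiplexin share does not hold for both members. Col15a1 averaged 28.7 CPM per kb in male and 1.26 in female libraries. Col18a1, the larger, averaged 82.8 and 142.8, and its groups overlapped. Shares of 1 library sum to a whole, so they are not independent of each other, and they were not tested.

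**Figure D4:**
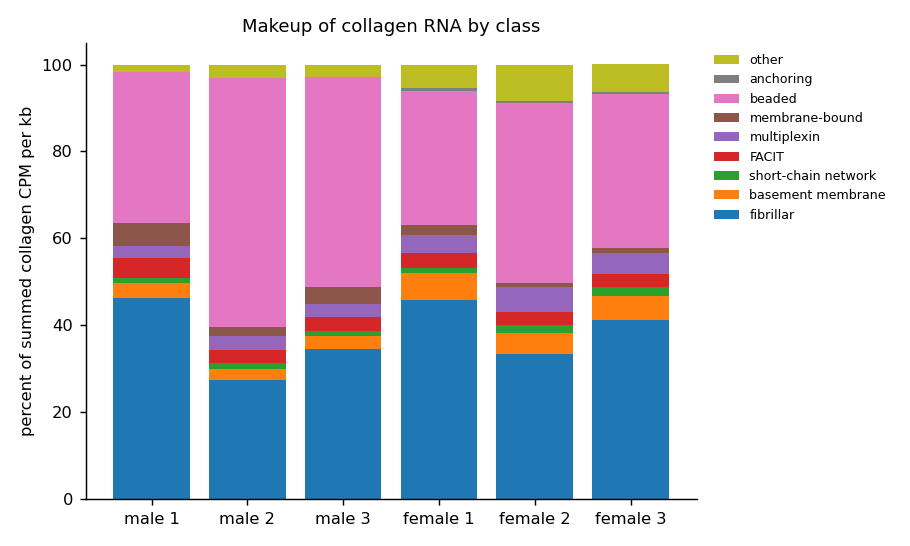
Percent of the summed collagen CPM per kb of longest transcript held by each of 9 classes, as stacked bars from 0, for male replicates 1 to 3 and then female replicates 1 to 3. Beaded and fibrillar genes fill most of every bar, and the basement membrane, multiplexin and other segments are thinner in the male bars.

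Chain ratios within a trimer showed how closely partner genes kept step. Per kb, Col1a1 to Col1a2 was 0.958, 1.08 and 1.04 in male and 0.803, 0.945 and 0.922 in female libraries. The type I trimer takes its chains unequally, with more alpha 1 than alpha 2, and RNA of the pair was near parity in all 6 libraries. Each male ratio lay above each female one, though by little. Col5a1 to Col5a2 ran from 0.799 to 2.59 in male and from 1.0 to 2.72 in female libraries, so the replicates of 1 sex differed far more than the sexes.

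Genes for collagen maturation, cross-linking and binding were read beside the chains. Of 48 listed, 41 were tested, and 1 was called, or 2.44%, beside 1.23% of all genes. Their median log2 fold change was 0.36, against −0.01 over all genes, with 33 of 41 above 0, against 7531 of 15227. All genes of the list share the same 6 libraries, so their directions are not independent and this count is a description. The sexes did not overlap in 12.2% of the list, all higher in male. Among all genes 13.7% did not overlap, 6.47% higher. With the GC content and length offset 4.88% of the list passed, beside 5.94% of all genes. P4ha3, a catalytic subunit of prolyl 4-hydroxylase, which stabilises the triple helix, had 37.8, 13.0 and 26.2 CPM in male and 2.87, 1.82 and 2.20 CPM in female libraries. It rose by 3.48 on the log2 scale (SE 0.51, edgeR adjusted p = 0.0362), without overlap. The call held without 1 of the 6 libraries in turn, with adjusted p from 0.0397 to 0.268 over the 6 and log2 fold changes of 3.09 to 3.79. The genes from here on were named after their values were seen. Neither of the more abundant subunit genes passed, P4ha1 at 0.62 (SE 0.30) and P4ha2 at 1.0 (SE 0.43) on the log2 scale. Adamts14, a procollagen N-proteinase, had 19, 24.6 and 19 CPM in male and 6.39, 6.93 and 7.24 CPM in female libraries. Its log2 fold change of 1.60 (SE 0.32) missed the threshold (edgeR adjusted p = 0.0717) and passed with the offset (adjusted p = 0.0195). Over 17 alternatives its adjusted p lay between 7.65e-13 and 0.439. On the same scale Serpinh1, the collagen chaperone, stood at 0.34 (SE 0.68) and Itgb1, the shared chain of collagen-binding integrins, at 0.00 (SE 0.51). With the offset P4ha1 stood at 0.76, P4ha2 at 0.93, Serpinh1 at 0.12 and Itgb1 at 0.10.

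The difference between replicates 1 and 2 of each sex went in part with GC content of the transcripts. Collagen transcripts ran from 45.9% GC in Col25a1 to 62.9% in Col11a2, with a median of 55.7%, against 50% over all genes tested that had a value. Across the 41 genes, GC content and the log2 difference of replicate 1 minus replicate 2 had Pearson's r of −0.56 in male and −0.66 in female libraries. Over 14674 genes the same r was −0.71 and −0.67. The 41 points share the same 4 libraries, so r is a description. Col25a1 was 2.23 higher in replicate 1 in male and 2.53 in female libraries on the log2 scale, whereas Col26a1 had −1.95 and −1.74 and Col6a2, at 55.2% GC, −2.21 and −1.84. Col11a2, the highest in GC content, had 1.04 in male and −0.32 in female libraries. Among the called genes, male and female values were 0.18 and −0.07 for Col7a1, −0.39 and −0.14 for Col15a1 and 0.25 and 0.13 for Col14a1. Col13a1 had −0.06 and −0.89 and Col28a1 −0.22 and 0.69. A gene with little spread passes more easily, so these values are no test of the calls against GC content. The male over female log2 fold change had r = −0.08 with GC content across the same 41 genes.

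**Figure D5:**
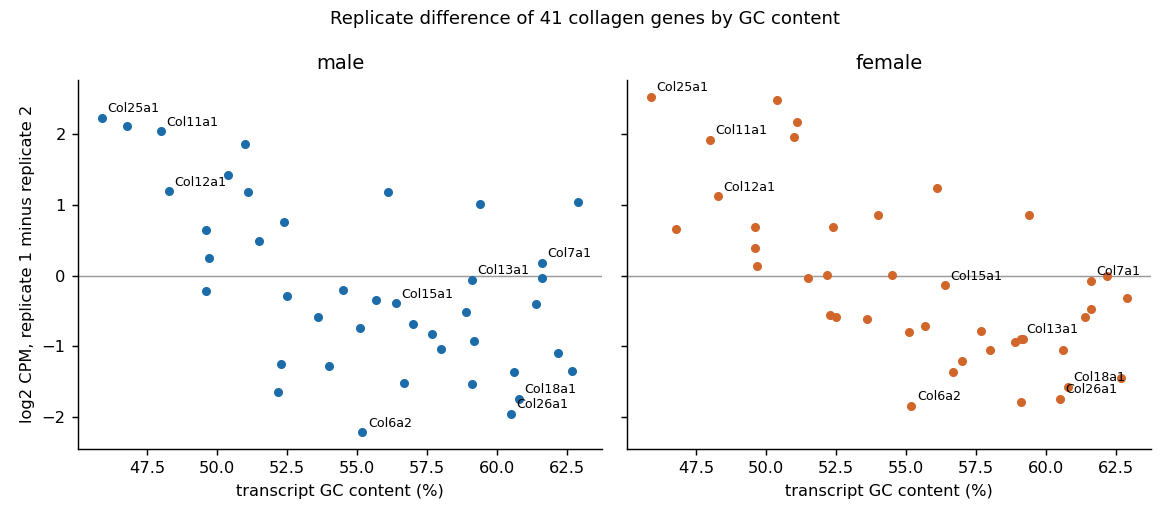
Log2 CPM of replicate 1 minus replicate 2 against transcript GC content (%) for the 41 tested collagen genes, male in the left panel and female in the right. Points tend to fall with rising GC content (r = −0.56 and −0.66). Col25a1 is highest at 2.23 and 2.53 and Col6a2 lowest at −2.21 and −1.84. Of the called genes, Col15a1 and Col7a1 lie near 0 in both panels, while Col13a1 stands at −0.06 and −0.89.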

How the data were processed

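Each of 6 libraries of sorted cells has 1 deposited file of whole-number counts by Ensembl gene, not normalized (paired 76-base reads, TruSeq v2, at least 100 ng of RNA, per the labels' protocols). The authors' notes name TopHat, HTSeq, DESeq and mm9, per the submitters' processing notes. Which annotation release and strand setting were used is not given in the sources used here. Reads of overlapping genes on opposite strands cannot be told apart. The 5 summary lines that name no gene entered neither library sizes nor tests. Those outside genes made up 3.53% to 18.2% of counts per library, taken over counts in genes, outside genes and on more than 1 gene, and those on more than 1 gene 6.51% to 10.0%.

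In R 4.3.3, genes were filtered by filterByExpr, scaled by TMM and tested for sex with edgeR 4.0.16 (robust quasi-likelihood, two-sided), with Benjamini-Hochberg adjustment over 15227 genes. SE was taken as the size of the log2 value divided by the root of its F statistic. Symbols were matched by gene identifier (32919 of 37991). Transcript length and GC content came from GENCODE M21 (GRCm38), a different build from mm9. The offset fitted splines with 5 degrees of freedom for GC content and length to each library, with 96.4% of tested genes covered. Alternatives were other scalings and filters, DESeq2 1.42.0, limma-voom (limma 3.58.1), a replicate block, a covariate, other thresholds and each library left out. Genes given by library were the members past the threshold, up to 3 most abundant and the smallest p of each class, and their trimer partners, with the remaining members by counts. P-values measure the spread between these pooled libraries. The members and lists were chosen with earlier results of these data known. One marker gene and the summed level of its list are not reported here.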

Additional observations from a re-analysis of the deposited data

Results flagged for a closer look

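Counts outside annotated genes entered no test above except as a covariate in 1 alternative. Their share of counts in genes, outside genes and on more than 1 gene ran from 3.53% in the lowest library, female replicate 2, to 18.2% in the highest, male replicate 1. It was flagged as a signal in data outside the gene counts that lay above the limit a count of 0 allows, which any library would pass. In replicates 1 to 3 it was 18.2%, 5.45% and 5.50% in male and 17.5%, 3.53% and 8.65% in female libraries, so replicate 1 was the highest of both sexes.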

How the results depend on the processing

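The main counts were 3 collagen genes higher, 2 lower and 1 called gene of the maturation list. Other scalings, limma-voom and no filter gave 2 or 3 higher and 2 lower; the maturation list had 0 with library size alone, and 1 collagen was lower with at least 1 CPM in 3 libraries, where Col28a1 was not tested. Among all genes these settings gave 119 to 155 higher and 55 to 69 lower. DESeq2 gave 5 higher, 3 lower and 2 of the maturation list, beside 444 higher and 327 lower of all 15227 genes. The GC content and length offset gave 5, 4 and 2, beside 460 and 445. A threshold of 0.1 gave 5 higher, 2 lower and 2 of the list, beside 241 and 145. A threshold of 0.01 gave 0 of each, beside 3 and 1. With a covariate for the fraction of counts that fell outside genes the numbers were 8, 9 and 12. Among all genes 1103 were then higher and 1114 lower. Leaving out each library gave 0 to 2 higher, 0 to 1 lower and 0 to 1 of the list by edgeR. Among all genes it gave 0 to 141 higher and 0 to 32 lower. By the same fits 8 to 12 collagens had an unadjusted p under 0.05, beside 884 to 1955 of all genes tested. The replicate numbers matched between the sexes for 1 and 2 but not for 3. Deviations of same-numbered male and female libraries correlated at 0.93, 0.85 and −0.07, and male replicate 3 was closest to female replicate 2 (0.59). The fit on sex alone counts the spread shared by same-numbered libraries as error. With a replicate block 12 collagens were higher, 10 lower and 17 of the list called, beside 1997 higher and 2167 lower of all 15227 genes. The ranges of adjusted p over 17 alternatives, given above for Col12a1, Col9a3, Col23a1, Col26a1 and Adamts14, include this block. With block and offset the numbers were 13, 9 and 18, beside 2069 and 2349, so the calls grew across all genes and not in collagens alone. No called collagen changed sign in 17 alternatives. Genes near 0 did: Col3a1 had 0.00 with the offset, 0.01 with offset and block, and up to 0.09 without a library; Col4a5 had −0.02 with library size alone and down to −0.12 without a library. Without a library, ranges were −0.21 to 0.09 for Col3a1, −0.36 to 0.17 for Col5a1, −0.04 to 0.88 for Col4a3, −0.12 to 0.15 for Col4a5, −0.78 to 0.11 for Col8a1, −0.52 to 0.21 for Col8a2, −0.47 to 0.22 for Col20a1, −0.34 to 1.35 for Col25a1 and −0.57 to 0.24 for Col6a6. Depth limits the rarest genes: Col28a1 rests on 8 male counts, and 3 collagens were too low to test.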
